A study of Caenorhabditis elegans with 14 samples.

Results

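The ribosomal protein genes of the nematode Caenorhabditis elegans were followed in whole wild-type N2 worms on single-colour Affymetrix arrays. They were taken by symbol: every gene whose platform annotation symbol starts with rps-, for the small subunit, or rpl-, for the large subunit, and which has a probe set that matches 1 gene in that annotation. This gave 75 genes, 30 small-subunit and 45 large-subunit, of 17138 genes measured on the arrays, read by 111 of the probe sets. The series holds 5 microwave arrays, 5 sham arrays, 2 arrays labelled heat shock and 2 labelled heat control. Microwave worms, grown from synchronised cultures at 15 °C to L4, the last larval stage, spent 2.5 h at 26 °C in a silver-plated cell under a continuous field, absorbing between 5 and 40 mW per kg. The protocols give the frequency as 1.8 GHz in one place and 1 GHz in another. Sham worms spent the same time at the same temperature in a copper cell without the field, and worms of one culture were divided between both. The temperature and duration of the heat treatment are not described for the heat shock or the heat control arrays, which carry the microwave protocol text. Each microwave and sham array held RNA pooled from 3 exposure runs.

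A cytosolic ribosome has a small subunit, which reads the messenger RNA, and a large subunit, which joins amino acids. Each holds ribosomal RNA and many different proteins, mostly present once per ribosome and needed in matched amounts. Their messages are among the most abundant in growing larvae, and in animals ribosome production follows nutrient signalling through the TOR kinase and its target S6 kinase.

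All values here are log2 ratios computed from linear ratios as deposited by the authors. Every sham column held exactly 1, and the microwave columns were accordingly taken as ratios to the like-numbered sham array, and heat columns as ratios to the mean of both heat control arrays. Absolute levels and signal over background were therefore unknown, ribosomal protein genes could not be ranked by abundance, and the defining markers of the stage or of tissues could be read only as ratios. In whole worms, fewer cells of a type and less RNA per cell cannot be told apart. As a check of the labels, the heat-inducible chaperone genes hsp-16.2, hsp-16.41 and hsp-70 were lower on the arrays labelled heat shock than on those labelled heat control, with log2 fold changes of -4.86, -4.98 and -3.34, opposite to their known response to heat. Every direction given for the heat arrays follows the labels, and it turns round if those labels, or the direction of the ratio, are the opposite.

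On the arrays labelled heat shock, the log2 ratios of ribosomal protein genes spread less than those of all genes. Against heat control, 7 of the 75 rose and 1 fell (adjusted p under 0.05 in limma over all genes), and 67 did not pass the test. That is 10.7% called, beside 30% of all genes tested. In the upward direction 15.2% of all genes were called and in the downward direction 14.8%. The median log2 fold change was 0.11 over the ribosomal protein genes and 0.13 over all genes. The standard deviation of the log2 fold changes was 0.30 over the ribosomal protein genes and 0.70 over all genes. The median standard error, which limma moderates over all genes, was 0.12 for the ribosomal protein genes and 0.14 for all genes. A change beyond 1 on the log2 scale was seen for 2 of the 75, or 2.67%, and for 12.6% of all genes. Fold changes beyond 1.5-fold in either direction were outside the 95% interval for 52 of the 75, or 69.3%, and for 32.3% of all genes. The narrower spread was seen on every array: on the arrays labelled heat shock the standard deviation over the ribosomal protein genes was 0.30 on both, against 0.74 and 0.70 over all genes. On the heat control arrays it was 0.06 and 0.05, against 0.19 and 0.20 over all genes. The narrower spread was thus also present between the 2 heat control arrays, and its cause was not tested. No test of the list against all genes was made.

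**Figure D1:**
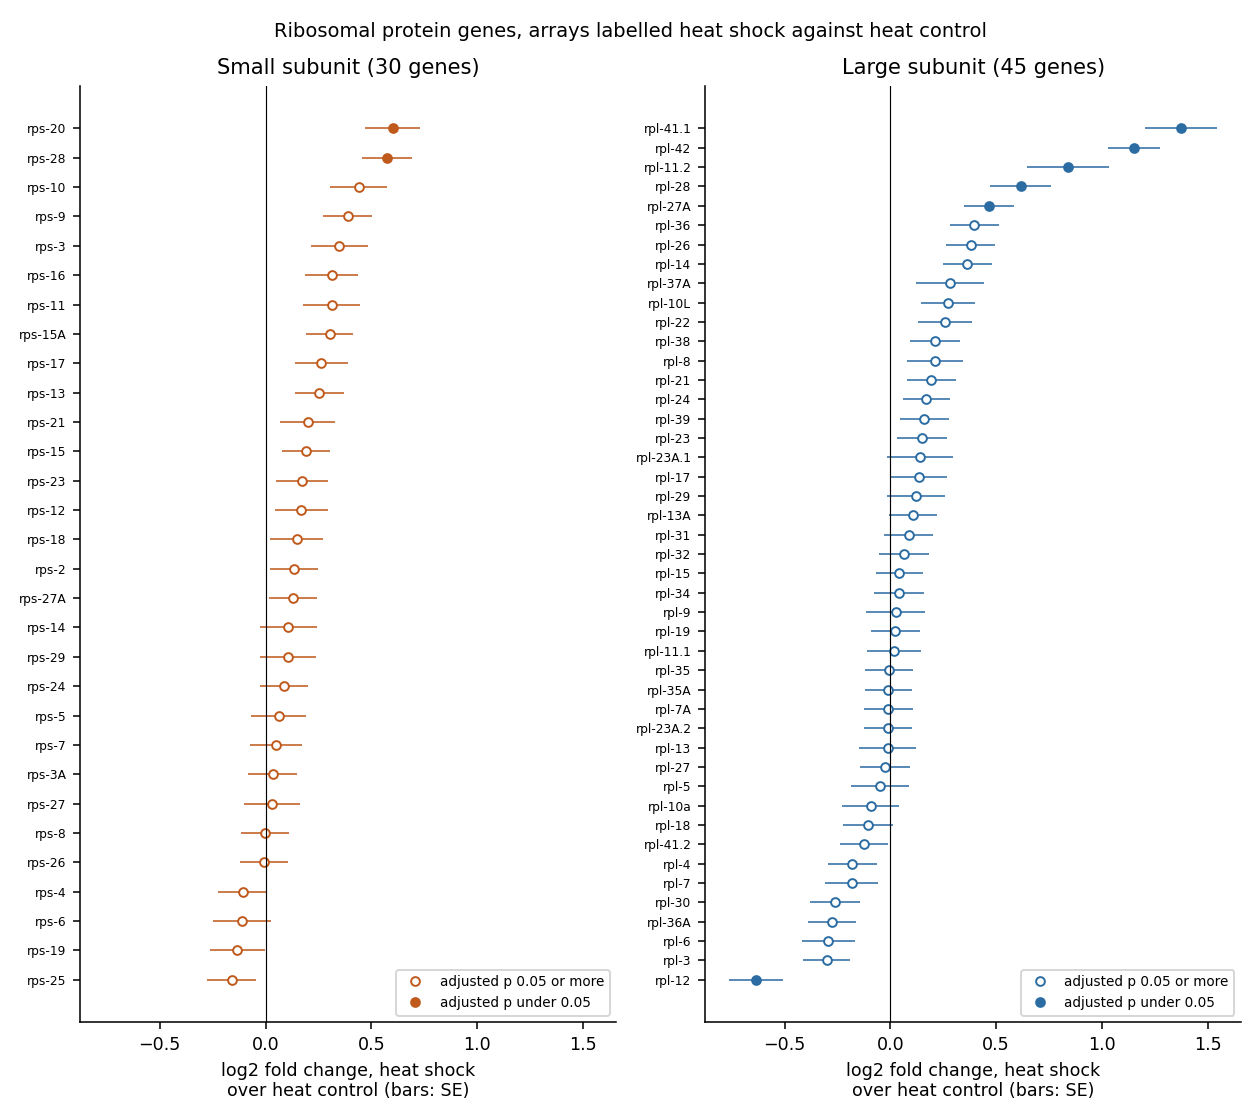
Log2 fold change of each ribosomal protein gene, arrays labelled heat shock over heat control (2 arrays each), small-subunit genes in the left panel and large-subunit genes in the right panel, with bars for the standard error and filled points for an adjusted p under 0.05. Most genes lie within 0.4 of 0, and rpl-41.1, rpl-42 and rpl-11.2 stand above the rest and rpl-12 below.

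Of the small-subunit genes, 2 rose and none of the 30 fell in the heat comparison. rps-20 encodes a protein of the head of the small subunit. It had log2 ratios of 0.60 and 0.60 on the arrays labelled heat shock, against -0.11 and 0.10 on the heat control arrays, a log2 fold change of 0.60 ± 0.13 (SE, 2 arrays each, adjusted p = 0.0266). rps-28, another head protein, had 0.60 and 0.55 on the arrays labelled heat shock, against -0.05 and 0.04 on the heat control arrays, a log2 fold change of 0.57 ± 0.12 (SE, adjusted p = 0.0227). For both genes the labelled groups did not overlap, and the distance between them exceeded the distance between the arrays of one group. Groups without overlap were also seen for members that were not called, such as rps-13 and rps-2. The next highest were rps-10 at 0.44, rps-9 at 0.39 and rps-3 at 0.35, and their adjusted p lay between 0.0574 and 0.106. The lowest were rps-25 at -0.16, rps-19 at -0.13, rps-6, the S6 protein that S6 kinase phosphorylates, at -0.11, rps-4 at -0.11 and rps-26 at -0.01, with adjusted p of 0.331 or more. Of the 14 head proteins measured, 2 rose, none fell and 12 lay above 0, with a median of 0.18. Over all genes 15.2% were called higher and the median was 0.13. With each array centred on its median, the head proteins had a median of 0.08, beside 0.03 over all genes. With the all-gene trend on gene length removed from each array, their median was -0.12, beside 0.02 over all genes. In that setting 0 head proteins were called higher and 1 lower, where 9.84% of all genes were higher and 16.2% lower.

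Of the 45 large-subunit genes, 5 rose and 1 fell. rpl-41.1 encodes the smallest ribosomal protein, which sits between the subunits. It had log2 ratios of 1.28 and 1.44 on the arrays labelled heat shock, against -0.20 and 0.17 on the heat control arrays, a log2 fold change of 1.37 ± 0.17 (SE, adjusted p = 0.00619), or 2.59-fold higher. rpl-42 is a member by its symbol, and whether its product is a cytosolic ribosomal protein was not settled here. It had 1.19 and 1.11 on the arrays labelled heat shock, against -0.08 and 0.07 on the heat control arrays, and was 2.22-fold higher (log2 fold change 1.15 ± 0.12, adjusted p = 0.00468). rpl-41.1 and rpl-42 were the only members past 2-fold. rpl-11.2, one of a pair of genes for the protein that with rpl-5 binds the 5S ribosomal RNA, had 0.79 and 0.85 on the arrays labelled heat shock, against -0.27 and 0.23 on the heat control arrays (0.84 ± 0.19, adjusted p = 0.0309). The large-subunit genes rpl-28, at 0.62 ± 0.14 (adjusted p = 0.0327), and rpl-27A, at 0.47 ± 0.12 (adjusted p = 0.0390), also rose.

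The gene that fell, rpl-12, encodes a protein at the base of the stalk to which elongation factors dock. It had -0.61 and -0.67 on the arrays labelled heat shock, against -0.10 and 0.09 on the heat control arrays (log2 fold change -0.63 ± 0.13, adjusted p = 0.0222). This value came from 1 of its 3 probe sets. The probe set that matches rpl-12 alone had -1.92 and -2.04 on the arrays labelled heat shock, against -0.23 and 0.20 on the heat control arrays. The other 2 probe sets, which can cross-match other transcripts, had log2 fold changes of 0.03 and 0.04, and with the median over probe sets the gene stood at 0.03 and was not called. The direction given for rpl-12 therefore rests on a single probe set, which was also at -2.05 in microwave pair 1 and 0.80 in pair 4. The next lowest large-subunit genes were rpl-3 at -0.30, rpl-6 at -0.29, rpl-36A at -0.27 and rpl-30 at -0.26, and their adjusted p lay between 0.0993 and 0.148. rpl-3 contributes to the peptidyl transferase region of the large subunit. Of the 9 proteins around the exit tunnel for the growing chain, rpl-4, rpl-39 and others, none was called and the median was 0.09. The 9 ranged from -0.18 for rpl-4 to 0.38 for rpl-26. Over all genes 30% were called and the median was 0.13. The exit tunnel median was -0.01 with each array centred, beside 0.03 over all genes. With the trend on gene length removed it was -0.23, beside 0.02 over all genes.

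The calls depended on the arrays and on the scaling. Without either one of the arrays labelled heat shock none of the 75 was called in limma, and 8 without the first and 7 without the second had an unadjusted p under 0.05. At that unadjusted threshold stood 29.8% of all genes without the first and 31.7% without the second, and after adjustment 0% and 4.72% of all genes were called. Without heat control array 1, rpl-41.1, rpl-42, rpl-11.2 and rpl-12 were called, beside 26.1% of all genes. With the replicate number as a block the calls were rpl-41.1, rpl-42 and rpl-11.2, beside 19.2% of all genes. With each array centred on its median the same fit gave 5 higher, all of them among the 7, and 1 lower, where 26.8% of all genes were called, 9.88% higher and 16.9% lower. The calls lost were rpl-28 (adjusted p = 0.0509) and rpl-27A (adjusted p = 0.0795), and the median became 0.00.

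Small-subunit genes stood slightly higher than large-subunit genes on the arrays labelled heat shock. The median log2 fold change was 0.14 over the 30 small-subunit genes, 24 of them above 0, and 0.06 over the 45 large-subunit genes, 28 of them above 0. The small minus large difference of the medians was 0.08 and 0.10 on the arrays labelled heat shock, against -0.02 and 0.02 on the heat control arrays. Both arrays labelled heat shock exceeded both heat control arrays, and with 2 arrays each no p was computed for this score. The difference was also 0.08 with each array centred and 0.06 with the trend on gene length removed. The level of the ribosomal protein genes as a whole was less distinct: their median was 0.09 and 0.11 on the arrays labelled heat shock, against -0.06 and 0.06 on the heat control arrays, so the heat control arrays differed between themselves by about as much as the groups did. On the first heat control array 65 of the 75 genes were below 0, where the median over all genes was -0.01. The second heat control array mirrors the first by construction, since both are ratios to their own mean.

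Ribosomal protein genes are short, with a median length of 756 bp against 2185 bp for all genes, and the heat ratios of all genes varied with length. From the shortest to the longest 25 members, the median heat log2 fold change was 0.16, 0.13 and 0.02. Over all genes of the same lengths it was 0.40, 0.30 and 0.18, so the ribosomal protein genes lay below genes of their own length in each class. With the all-gene length trend removed from each array, the ribosomal median was -0.21, with 2 genes higher (rpl-41.1 and rpl-42) and 6 lower (rpl-12, rpl-36A, rpl-30, rpl-41.2, rpl-6 and rps-25), where 26% of all genes were called, 9.84% higher and 16.2% lower. rps-20, rps-28, rpl-11.2, rpl-28 and rpl-27A were no longer called, with adjusted p between 0.0778 and 0.516. The sign of the median thus changed with this correction. The 3' minus 5' log2 ratio of control transcripts, a measure of RNA integrity, parted in opposite directions. For actin it was 0.22 and 0.33 on the arrays labelled heat shock, against -0.05 and 0.05 on the heat control arrays, and for ubiquitin it was 0.12 and 0.21 on the arrays labelled heat shock, against -0.05 and 0.07 on the heat control arrays. For gly14 it was -0.33 and -0.37 on the arrays labelled heat shock, against 0.03 and -0.03 on the heat control arrays. The mean over the control transcripts, in which these cancel, was 0.05 and 0.05 on the arrays labelled heat shock, against 0.03 and -0.02 on the heat control arrays. The part of RNA integrity and length in the ribosomal protein result was not tested further.

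**Figure D2:**
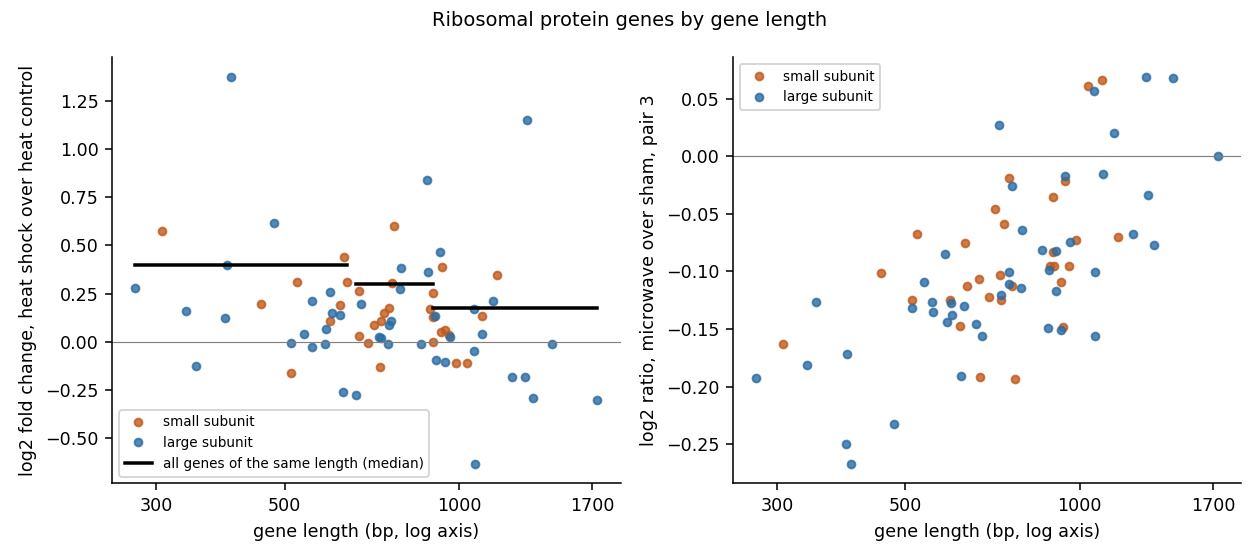
Gene length (bp, log axis) against the heat log2 fold change in the left panel and against the log2 ratio of microwave pair 3 in the right panel, one point per ribosomal protein gene. The black bars in the left panel are medians over all genes of the same length, 0.40, 0.30 and 0.18 from short to long, above the ribosomal medians of 0.16, 0.13 and 0.02; in pair 3 the shorter genes have the lower ratios.

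In 3 cases the array measured both members of a copy pair, and the copies did not always have the same ratio. rpl-11.1 had 0.03 and 0.00 on the arrays labelled heat shock, against 0.09 and -0.10 on the heat control arrays, and did not move with rpl-11.2. The rpl-11.2 minus rpl-11.1 difference was 0.82 on the log2 scale. rpl-41.2, which is the next protein-coding gene to rpl-41.1 in the RefSeq annotation, had -0.16 and -0.09 on the arrays labelled heat shock, against 0.00 and 0.00 on the heat control arrays, and the rpl-41.2 minus rpl-41.1 difference was -1.50. The copies of rpl-23A, whose protein lies at the tunnel exit, differed by less: rpl-23A.2 minus rpl-23A.1 was -0.15, and neither copy was called, at -0.01 and 0.14. In a two-sided exact permutation test of these 3 differences, rpl-11 and rpl-41 each gave p = 0.333, the smallest that 2 arrays against 2 allow, and rpl-23A gave p = 0.667; after Benjamini-Hochberg adjustment they were 0.5, 0.5 and 0.667. The probe sets of rpl-11.1, rpl-11.2, rpl-41.1, rpl-41.2 and rpl-23A.1 are of the kinds that can match several transcripts, so the split between near-identical copies is uncertain.

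**Figure D3:**
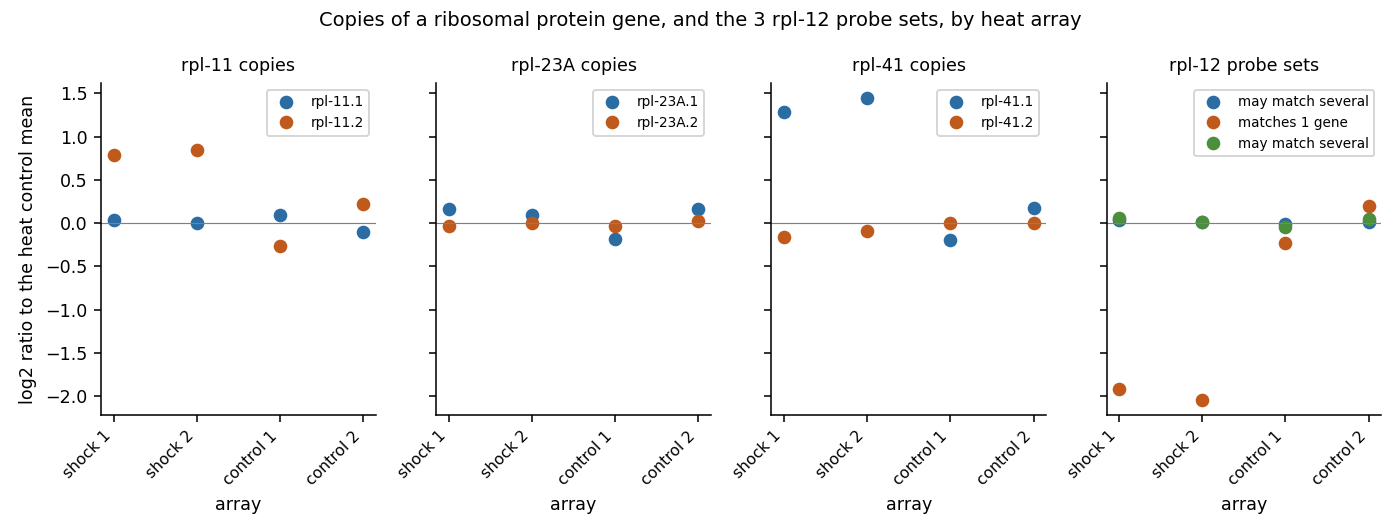
Log2 ratio to the heat control mean on each array labelled heat shock and each heat control array, for 3 pairs of gene copies and for the 3 probe sets of rpl-12. rpl-11.2 and rpl-41.1 stand above their copies on both arrays labelled heat shock, and a single rpl-12 probe set, the one that matches 1 gene, lies near -2 there.

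Most ribosomal protein genes with several probe sets had similar ratios in them. Of 32 genes with more than 1 probe set, the heat log2 fold changes spanned a median of 0.15, spanned over 0.3 for 6 genes, and had opposite signs for 9; none had calls in opposite directions. After rpl-12 the widest were rpl-8, chosen here after its values were seen, at -0.08 and 0.50, and rps-3 at 0.09 and 0.61, of which the second probe set was called. For rps-20 the probe sets gave 0.81 and 0.39. At probe set level 10 of 111 were higher and 1 lower, beside 30% called of all probe sets. Using only the 36 probe sets that match 1 transcript, 35 of the genes could be fitted and 5 were called, beside 26.6% of the genes so measured: rpl-42, rpl-28, rpl-27A and rps-3 higher, and rpl-12 lower, at -1.97.

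The acidic stalk proteins rplp-2.1 and rplp-2.2, which are ribosomal but carry another symbol, rose by 0.57 ± 0.12 (SE, adjusted p = 0.0272) and 0.90 ± 0.21 (SE, adjusted p = 0.0325). rplp-2.2 had 0.81 and 0.93 on the arrays labelled heat shock, against -0.30 and 0.25 on the heat control arrays. Their partners rplp-1 at 0.08 and rplp-0 at 0.13, the scaffold rack-1 at -0.09, and ubq-2, which encodes ubiquitin fused to a large-subunit protein, at 0.25, did not pass the test. rps-27A, the small-subunit counterpart of that fusion, was at 0.13. With the length trend removed neither stalk gene was called.

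Mitochondrial ribosomal protein genes, which build the separate ribosome of that organelle, differed from the cytosolic ones in spread. Of 59 measured, 13 rose and 17 fell, which is 50.8% called, beside 30% of all genes. The standard deviation of their log2 fold changes was 0.93, against 0.30 for the cytosolic genes and 0.70 over all genes. The widest were mrps-16 at 2.08 and mrpl-1 at -2.22. Of 44 ribosome biogenesis genes 2 rose and 16 fell (40.9% called, median -0.26), with a standard deviation of 0.75, close to that of all genes; among them were nst-1, a nucleolar GTPase, at -1.90 and sbds-1, a factor in large-subunit maturation, at -1.83. Of 22 genes with an eif- symbol, listed as initiation factors, 2 rose and 10 fell (median -0.50), with eif-2beta at -1.76. The 2 that rose were eif-4A3 at 1.25 and eif-6 at 0.99. eif-6 was also among the biogenesis genes, and whether these 2 act in initiation was not settled here. Of 12 elongation and termination genes 2 rose and 4 fell, and of 14 RNA polymerase I and III genes 4 rose and 3 fell. Of 22 TOR and S6 kinase pathway genes 3 rose and 6 fell. Those that rose were ife-2 at 0.85, ife-1 at 0.83 and pha-4 at 0.52. Those that fell were the amino acid sensing GTPases ragc-1 at -1.70 and raga-1 at -1.50, sgk-1 at -1.26, nprl-2 at -0.92, rheb-1 at -0.74 and aak-2 at -0.69. The counts give no direction of TOR signalling. No test compared these lists with the ribosomal protein genes or with all genes.

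**Figure D4:**
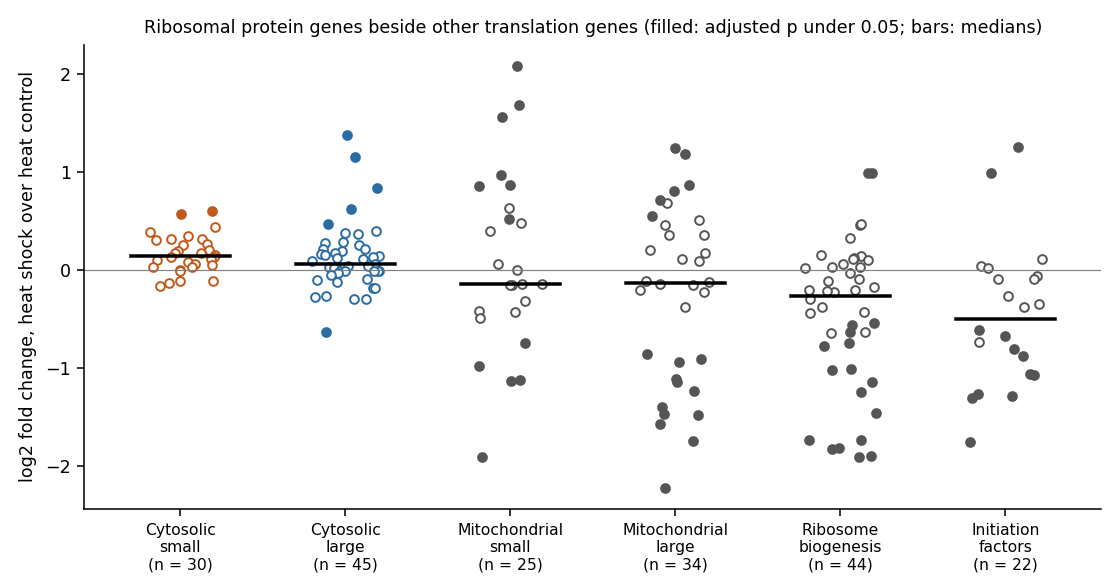
Log2 fold change, arrays labelled heat shock over heat control, one point per gene, filled where the adjusted p is under 0.05, with bars for medians. The cytosolic ribosomal protein genes, with medians of 0.14 and 0.06, lie mostly near 0, with rpl-41.1 and rpl-42 above 1. Mitochondrial ribosomal protein genes reach beyond 1 in either direction. So do the genes listed as initiation factors, upward by eif-4A3 alone. Biogenesis genes reach -1.90 and 0.99.

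Some marker genes of tissues were called on the same arrays, where 30% of all genes were called and 14.8% were lower. Of 7 intestine markers 5 fell and none rose, and their median was -0.76 on the log2 scale. Of 6 body muscle markers 1 rose and 4 fell (median -0.88), of 10 germ line markers 1 rose and 3 fell (median -0.15), and of 7 sperm markers 3 rose and 2 fell (median 0.11). Their summed level is unknown from ratios, and their part in the ribosomal protein result was not tested.

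Microwave exposure gave no called ribosomal protein gene. None of the 75 passed an adjusted p of 0.05 in limma, beside 0% of the 17138 genes, and none had an unadjusted p under 0.05, where 3.33% of all genes did. The lowest unadjusted p among them was 0.0937. The median log2 fold change, microwave over sham, was -0.01 over the ribosomal protein genes and 0.00 over all genes, and 35 of the 75 lay above 0. That split depended on the setting. With the trend on gene length removed the median was 0.03 and 66 of the 75 lay above 0, beside a median of 0.00 over all genes. Without pair 1, 16 of the 75 lay above 0, and without pair 3, 52 did. Leaving out pair 2, 4 or 5 gave 30, 38 and 38. The members ranged from -0.11 for rpl-29 to 0.10 for rpl-7A. Fold changes beyond 1.25-fold in either direction were outside the 95% interval for 74 of the 75, or 98.7%, and for 84.0% of all genes; the exception was rpl-12, whose interval reached 1.30-fold.

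The gene nearest to a shift in one direction was rpl-7A, a large-subunit protein, with log2 ratios of 0.24, 0.07, 0.07, 0.06 and 0.04 in pairs 1 to 5. All 5 lay above 0, with a mean of 0.10 and a 95% interval of -0.02 to 0.22 (adjusted p = 0.872). Without pair 1 its mean was 0.06. rpl-4 was above 0 in 5 of 5 pairs at a mean of 0.09, and so was rps-2, a protein at the messenger RNA entry site, at 0.06. rpl-41.2 was below 0 in 5 of 5 pairs, at -0.05. Of the small-subunit genes rps-6 was highest at 0.06 and rps-20 lowest at -0.07. The rps-6 value rested on pair 1, where it was 0.26: without that pair it was 0.01, below rps-2 at 0.05. None of these genes passed the test.

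Within single pairs the ribosomal protein genes moved together more than the mean over pairs shows. Their median was 0.07, 0.02, -0.11, 0.00 and -0.02 in pairs 1 to 5, and the median over all genes was -0.01, 0.01, -0.02, 0.01 and -0.01. In pair 3, 67 of the 75 were below 0, while 55 were above 0 in pair 1 and 56 in pair 2. The mean of the pair medians was -0.01 ± 0.07 (SD, n = 5), so the pairs differed in direction by more than the mean. Small-subunit and large-subunit genes had similar medians in each pair: the small minus large difference of the medians was -0.01, 0.01, 0.02, -0.01 and -0.02. The copies had mean differences of 0.04 ± 0.07 for rpl-11.2 minus rpl-11.1, 0.08 ± 0.23 for rpl-23A.2 minus rpl-23A.1 and 0.04 ± 0.14 for rpl-41.2 minus rpl-41.1 (SD, n = 5 pairs). In a two-sided exact sign-flip permutation test they gave p = 0.312, 0.688 and 0.562, all 0.688 after Benjamini-Hochberg adjustment, where the smallest p that 5 pairs allow is 0.0625.

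**Figure D5:**
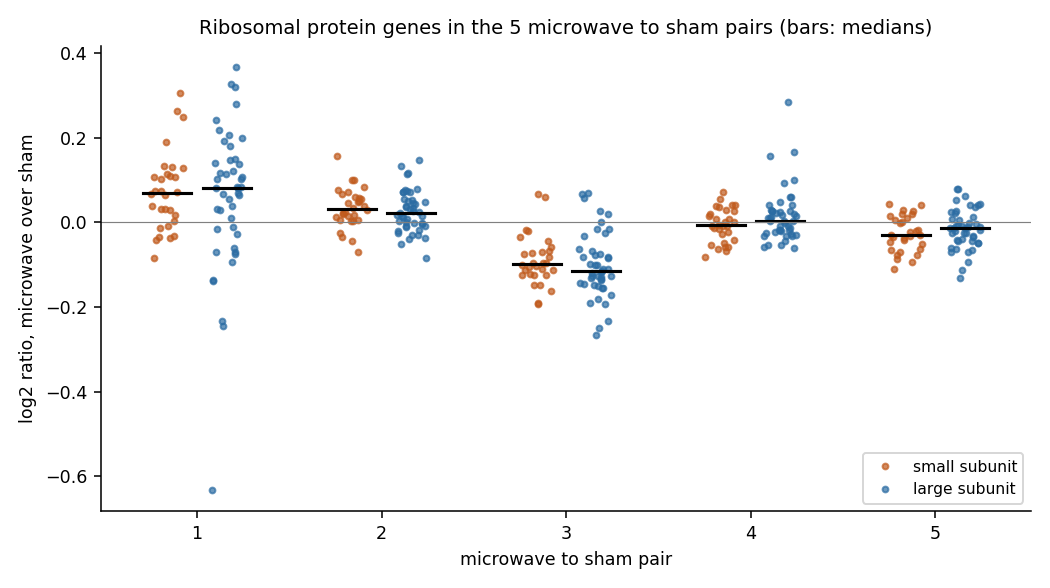
Log2 ratio, microwave over sham, of each ribosomal protein gene in the 5 pairs, small-subunit genes left and large-subunit genes right in each pair, with bars for medians. Both subunits lie mostly below 0 in pair 3 and mostly above 0 in pair 1, where rpl-12 is at -0.63.

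Pair 1 had the widest spread, with a standard deviation of 0.15 over the ribosomal protein genes and 0.36 over all genes. Its mean of 3' minus 5' control probe sets was -0.74, and in the other pairs this lay between -0.13 and 0.03. In pair 1 the shortest 25 ribosomal protein genes had a median of 0.01 and the longest 25 a median of 0.12. Over all genes of the same lengths the pair 1 medians were -0.20 and -0.06, below those of the ribosomal protein genes. In pair 3 the ratio was lower in shorter members, with a Pearson r of 0.66 between log2 length and ratio across the 75 genes. In pairs 1, 2, 4 and 5 r was 0.36, 0.21, -0.04 and 0.48. Without rpl-12 the pair 1 value was 0.52. These genes share arrays and are not independent replicates. The part of RNA integrity and length in these pair values was not tested. Without pair 1 the ribosomal median was -0.03 and none of the 75 was called in limma.

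The wider lists gave the same count. No ribosome partner, mitochondrial ribosomal protein, biogenesis, initiation, elongation, RNA polymerase or TOR pathway gene was called in microwave over sham. The stalk gene rplp-2.2 had -0.39, -0.04, -0.22, 0.13 and -0.04 in the 5 pairs, a mean of -0.11 ± 0.08 (SE, adjusted p = 0.872).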

How the data were processed

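The files held ratios, which the authors had deposited on a linear scale. GCOS with MAS 5 is the normalisation stated per the labels' protocols, whereas RMA appears in the submitters' processing notes; which of them produced the ratios, and on which genome build the probe sets were placed, is not given in the sources used here. Baselines (the like-numbered sham array, and the mean of the heat controls, whose columns summed to 2.00 for every probe set) were inferred from the values. RNA was pooled per microwave and sham array, so the microwave p-values measure the spread between pools. For the heat arrays, which carry the microwave protocol text, pooling is not settled, and their p-values measure the spread between arrays. The number of arrays limits the precision.

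Ratios were log2 transformed, 77 control probe sets removed, and 22548 tested. The platform annotation gave 1 gene for 20766, several for 887 and none for 895. Gene values are means over single-gene probe sets. All 75 ribosomal symbols were the same in the RefSeq table (WBcel235), used for names, neighbours and gene length; it lists 78 such genes. No table of sequences was used.

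R 4.3.3 and limma 3.58.1 (lmFit, eBayes) fitted all genes: the mean of 5 pair ratios against 0, and 2 heat shock against 2 heat control arrays without a block. P-values were two-sided and Benjamini-Hochberg adjusted, with a threshold of 0.05. Same-numbered heat arrays did not deviate together (r = -0.05). Named genes were, per comparison and subunit, the 5 highest and 5 lowest, all copies, the partner and label-check lists and up to 4 per other list. Members and lists were chosen with earlier results of these data known. The fits were tested on simulated data. Alternatives were median centring, quantile normalisation, removal of a lowess length trend (span 0.3), the median over probe sets, probe sets that match 1 transcript, array weights, robust variance, a replicate block and leaving out each pair or array.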

Additional observations from a re-analysis of the deposited data

Results flagged for a closer look

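In the microwave comparison 3 of 38 named results had 1 pair far from the other 4, by Dixon's criterion at the 95% level, and in all 3 it was pair 1. rpl-7A was at 0.24 on the log2 scale in pair 1, with the other pairs between 0.04 and 0.07. rpl-23A.2 was at 0.32 in pair 1, with the others between -0.08 and -0.01. rack-1, the scaffold on the small subunit, was at 0.20 in pair 1, with the others between 0.00 and 0.03. Over all ribosomal protein genes 5 of 75 met the criterion. The nominal rate for independent values is about 1 in 20, but these genes share arrays. The share over all genes is not given here, and pair 1 had the widest spread over all genes too. The count is therefore not read as a result about ribosomal protein genes.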

How the results depend on the processing

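In the microwave comparison 0 ribosomal protein genes were called under every alternative run (limma). In the heat comparison 8 were called (7 higher, 1 lower). The replicate block gave 3 (3 higher, 0 lower), probe sets that match 1 transcript gave 5 (4 higher), the removed length trend gave 2 higher and 6 lower, and the median over probe sets gave 0 lower. Leaving out 1 array gave 0 to 8 called, 0 to 7 higher and 0 to 1 lower. The heat median of 0.11 was 0.004 after centring, -0.209 with the length trend removed and 0.0674 to 0.168 leaving out 1 array; the small minus large difference of 0.08 was 0.0827 to 0.104 leaving out 1 array. Of single genes, those with a turned sign were near 0 or not called, except rpl-12 (0.0265 with the median over probe sets). In the heat comparison centring gave rpl-11.1 -0.085 and rplp-1 -0.0269, and the removed length trend gave rpl-11.1 -0.303, rpl-23A.1 -0.214, ubq-2 -0.125, rplp-0 -0.0742 and rplp-1 -0.322. Leaving out 1 array gave rps-6 -0.229 to 0.0051, rps-26 -0.0317 to 0.0145, rpl-11.1 -0.0766 to 0.111, rpl-23A.1 -0.0337 to 0.314 and rpl-23A.2 -0.0396 to 0.0153. In the microwave comparison the removed length trend gave rps-25 0.0012, rpl-37A 0.001, rpl-11.1 0.0225, rpl-41.2 0.0024, rplp-1 0.0306 and rplp-2.1 0.0367, array weights gave rps-8 -0.0037 and rpl-23A.2 -0.0215, and quantile normalisation gave rpl-12 0.0001 and rpl-23A.2 -0.009. Leaving out 1 pair gave rps-8 -0.0204 to 0.0799, rpl-12 -0.198 to 0.0312, rpl-7 -0.0169 to 0.0814, rpl-6 -0.0223 to 0.0885, rpl-11.2 -0.0048 to 0.0691, rpl-11.1 -0.0366 to 0.01, rpl-23A.2 -0.039 to 0.0618, rplp-1 -0.0338 to 0.0061, rplp-2.1 -0.0244 to 0.0122 and hsp-16.41 -0.211 to 0.0078. The cause of these changes was not tested, beyond that the removed trend and the fewer arrays or probe sets are part of the alternatives themselves. Where 1 array was left out, the lone array was assumed to vary like the others.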
